A study of Saccharomyces cerevisiae with 16 samples.

Results

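The genes described are those of the cytosolic ribosomal proteins of the yeast *Saccharomyces cerevisiae*, taken as every probe set whose annotated symbol is RPL or RPS with a number and, where there is one, the letter A or B. The rule found 142 probe sets for 122 genes, among 5449 genes with a symbol, of which 5213 were tested. All 122 passed the filter on low values. Of these genes, 70 code for proteins of the large (60S) subunit and 52 for proteins of the small (40S) subunit. They stand for 74 proteins, of which 48 had both copies measured, 17 have a symbol without a copy letter and 9 had 1 of 2 copies measured. For 24 genes the probe set is marked as shared with related sequences. These are called shared at some, but not all, of the places where they are named. Another 10 genes whose symbols fit the name rule were not analysed here.

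A ribosome is built from RNA and from many proteins needed in equal amounts, so ribosomal protein transcripts are among the most abundant messages of a growing yeast cell. Most of these proteins are encoded by a pair of genes, A and B, left by a duplication of the genome, with protein sequences that are identical or nearly so. Transcription of these genes depends on Rap1, Fhl1 and Ifh1 and on the TOR and protein kinase A pathways, and it is known to be shut down quickly when a nutrient runs out.

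The strain was CEN.PK113-7D, a haploid laboratory yeast without a deletion or transgene named in the labels, grown on mineral medium with glucose limiting. The feed glucose was then raised linearly until ammonia was limiting, in an aerobic and an anaerobic series of 8 samples each, 16 microarrays in all. Aerobic samples were taken at 0, 4.1 and 6.85 h (early, feed glucose of 1 to 8.5 g/L), 9.6 and 14.5 h (mid, 11.56 and 16.96 g/L) and 27.25, 42.65 and 53.95 h (late, 30.97 to 60.34 g/L). Anaerobic samples were taken at 0, 4.35 and 10.38 h (early, 1 to 10.31 g/L), 16.88 and 26.52 h (mid, 16.19 and 24.86 g/L) and 35.67, 42.85 and 50.85 h (late, 33.1 to 46.75 g/L). Levels are log2 intensities, each made by the authors for 1 probe set, and the height of a level is not compared between probe sets. The labels name no separate cultures, so p-values measure the spread between serial samples. Each gene has 1 estimate of that spread, pooled within the phase groups of both series, unless a series is said to be fitted alone. The aerobic mid samples thus also enter the standard errors of anaerobic changes. Growth without oxygen and the culture it was run in cannot be told apart, nor can fewer cells with a transcript and less of it per cell.

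The genes ANB1, DAN1 and TIR1, known to be expressed without oxygen, were higher in every anaerobic sample than in any aerobic one, while CYC1, COX5A, COX5B and HEM13 overlapped between the series. ANB1 was still climbing in the early anaerobic samples, at 7.70, 9.96 and 13.49, and was at 14.54 at 50.85 h. Late minus early in that series thus spans this climb as well as the rise in feed glucose. The a-cell receptor gene STE2 was between 12.47 and 15.11 in the aerobic samples and between 13.32 and 15.14 in the anaerobic ones. The alpha-cell genes had signal too. In the aerobic samples MF(ALPHA)1 was between 5.27 and 13.00, STE3 between 5.70 and 9.13 and SAG1 between 8.94 and 11.06. Their anaerobic ranges were 4.45 to 8.59, 6.45 to 8.76 and 9.14 to 10.84. The aerobic 9.6 h array stood apart, as its correlation with the rest of its series, taken across genes, had a median of 0.776, and the same median was 0.860 to 0.927 for its 7 companions. Results are therefore also given without this array and the 2 arrays at 0 h, which was decided with the values in view and is called "without the 3 arrays".

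Most ribosomal protein transcripts moved together at several steps of both series. By far the largest movement was a transient low at 9.6 h in the aerobic series. The median level over the 122 genes on the aerobic arrays was 14.86, 15.30, 15.28, 12.41, 14.68, 14.85, 14.92 and 14.97 in order of time. On the anaerobic arrays it was 14.86, 15.32, 15.25, 15.18, 15.16, 15.14, 14.89 and 14.97. Apart from the 9.6 h array, the median stayed between 14.68 and 15.32, and each series was highest at its second sample. The median over all tested genes lay between 11.46 and 11.61 on the aerobic and between 10.91 and 11.07 on the anaerobic arrays.

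Several steps between neighbouring samples were shared by nearly all members, while others had no common direction. From 4.1 to 6.85 h in the aerobic series 61 genes were higher and 61 lower. From 16.88 to 26.52 h in the anaerobic series 57 were higher and 65 lower. The last aerobic step, from 42.65 to 53.95 h, had 81 higher and 41 lower. From 0 to 4.1 h in the aerobic series 121 of 122 genes were higher, with a median step of 0.38 log2 units, and from 0 to 4.35 h in the anaerobic series all 122 were higher, by a median of 0.41. Over all tested genes 52.2% were higher across that aerobic step and 42.5% across that anaerobic step. From 6.85 to 9.6 h in the aerobic series 121 genes were lower, with a median step of -2.71, and from 9.6 to 14.5 h 120 were higher, with a median step of 2.21. Set directly against each other, the 14.5 h array was lower than the 6.85 h array for 121 genes, by a median of -0.53. Levels then crept up: 107 genes were higher at 27.25 than at 14.5 h and 119 were higher at 42.65 than at 27.25 h. In the anaerobic series 118 genes were lower at 42.85 than at 35.67 h, with a median step of -0.24, and 104 were higher again at 50.85 h, by 0.08. These steps compare single arrays and have no replicate.

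The largest median step down of each series was in the same interval as a jump of genes known to be induced by poor nitrogen supply. Smaller steps down lay elsewhere in the anaerobic series, with 107 genes lower from 4.35 to 10.38 h, 104 from 10.38 to 16.88 h and 89 from 26.52 to 35.67 h, by medians of -0.07, -0.05 and -0.05, and DAL80 had no such jump there. The level of DAL80, a GATA repressor of that group, went from 3.26 at 6.85 h to 14.71 at 9.6 h in the aerobic series. In the anaerobic series it went from 6.11 at 35.67 h to 13.08 at 42.85 h. DAL5 and GAP1, a permease of allantoate and the general amino acid permease, had levels of 11.08 and 12.60 at 6.85 h and of 15.66 and 15.79 at 9.6 h. All 4 genes of that reference list (with MEP2) rose from early to late in the aerobic series. With all arrays 11.2% of all tested genes did. In the anaerobic series 0 of 4 were called with all arrays, against 3.7% of tested genes higher. Without the 3 arrays 3 rose there, against 20.9%. DAL80 was still at 14.64 at 14.5 h, where the ribosomal protein median was back at 14.68.

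**Figure D1:**
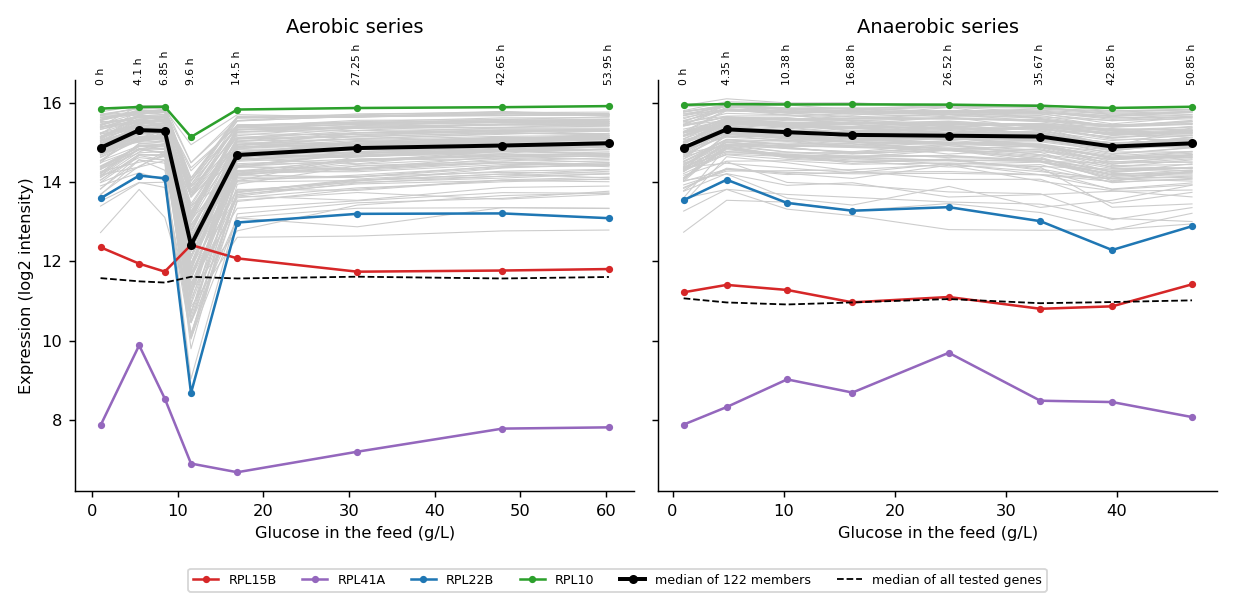
Level (log2 intensity) of 122 ribosomal protein genes against feed glucose (g/L), in the aerobic (left) and anaerobic (right) series, 1 point per array with its sampling time above; grey lines are single genes, coloured lines 4 named genes, the solid black line the median of the 122 genes and the dashed line the median of all tested genes. The solid line lies at 12.41 on the aerobic 9.6 h array and between 14.68 and 15.32 on the other 15 arrays.

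On the aerobic 9.6 h array 120 of 122 ribosomal protein genes were below all 15 other arrays, against 16.3% of all tested genes. Against the mean of the 6.85 and 14.5 h arrays, the median difference was -2.47 log2 units, 5.53-fold lower, with quartiles of -3.34 and -1.91, and the median over all tested genes was 0.23. Of the 122 genes, 118 were at least 1 log2 unit lower than that mean, against 14.5% of tested genes, and 40 were at least 3 lower, against 4.91%. With the 9.6 h array as a group of its own in limma (lmFit and eBayes across all tested genes, Benjamini-Hochberg adjusted p under 0.05), 120 members were lower than the mean of the early and late groups and 0 were higher, against 17.1% lower and 14.6% higher of all tested genes. A group of 1 array has no spread of its own, so this fit assumes that it varies like the other groups. The array was set apart because its values stood out, so these calls describe it and are not a replicated difference.

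The size of the difference varied widely between members. RPL22B, a copy of a nonessential 60S protein, had levels of 13.59, 14.16 and 14.09 before the 9.6 h array, 8.68 on it, and 12.98, 13.19, 13.21 and 13.09 after it. It was 28.9-fold below the mean of its neighbours, with a change of -4.88 ± 0.28 (SE) against early and late. RPL13A, a 60S protein gene, was at 14.47, 9.04 and 13.20 at 6.85, 9.6 and 14.5 h, 27.8-fold lower. RPS26B, whose product sits at the exit of the messenger RNA channel, was at 15.13, 9.80 and 13.94, 26.7-fold lower. These examples were chosen after their values were seen, and in all of them the 9.6 h array lay below every other array.

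At the other end, RPL10, whose product is among the last proteins to join the 60S subunit, stayed between 15.82 and 15.91 on the other aerobic arrays and was at 15.13 at 9.6 h. Its difference from the neighbours was -0.73, and its change against early and late was -0.75 ± 0.06. RPS27A was at 14.96, 13.67 and 14.57 over the 3 arrays and RPL28, the gene of cycloheximide resistance, at 15.65, 14.36 and 15.40. The shared probe sets of RPS23A and RPL41A differed from their neighbours by -0.82 and -0.71. RPL41A, the gene of an extremely short 60S peptide, was not called. RPL15B was the exception in direction, with levels of 11.74, 12.41 and 12.07 at 6.85, 9.6 and 14.5 h, 0.51 above its neighbours' mean, and it too was not called (0.52 ± 0.24).

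The difference was of similar size in both subunits, with a median of -2.51 over the 60S and -2.30 over the 40S genes. It was -1.88 over the 17 genes without a copy letter, -2.55 over the A copies and -2.50 over the B copies. Over shared probe sets the median was -1.97 and over the others -2.65. These medians of groups of genes were not compared by a test. Between 7 and 43 members lay within 1 log2 unit of the array's maximum on the other aerobic arrays and 0 at 9.6 h. Whether closeness to the maximum bears on the size of the differences was not tested. Among the 20 genes with several probe sets, the sets of a gene differed in their 9.6 h difference by a median of 0.29 and by up to 2.09 log2 units (RPS17B), with 1.75 in RPS18B, 1.54 in RPL21A and 1.46 in RPL2A.

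**Figure D2:**
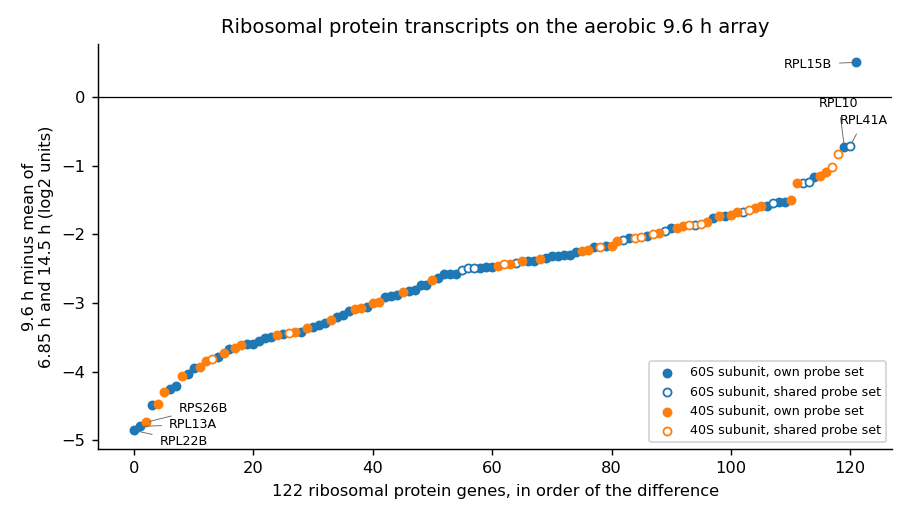
Difference of the aerobic 9.6 h array from the mean of the 6.85 and 14.5 h arrays (vertical axis, log2 units) for 122 ribosomal protein genes in order of that difference (horizontal axis), by subunit (colour) and by own or shared probe set (filled or open). All points but RPL15B lie below 0, and RPL22B lies lowest, at -4.86.

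Late samples of each series were compared with early ones, which asks how the members stood after the feed glucose had been raised. With all 16 arrays no ribosomal protein gene was called by limma in either series, with 0 rises and 0 falls, against 11.2% of tested genes higher and 4.28% lower in the aerobic series and 3.7% and 2.34% in the anaerobic series. At an unadjusted p under 0.05 there were 0 higher and 2 lower genes in the aerobic series, RPL41A and RPL9A, against 22.8% and 9.17% of tested genes. In the anaerobic series there were 0 and 0, against 12.7% and 9.73%. The median change was -0.22 in the aerobic and -0.16 in the anaerobic series, and 120 and 119 of the 122 values were below 0. RPL9A was not called in the aerobic series by limma (adjusted p of 0.125). The other largest aerobic values were -1.16 ± 0.47 for RPL41A (shared, adjusted p of 0.111), -0.78 ± 0.74 for RPL22B, -0.67 ± 0.45 for RPL43B and -0.62 ± 0.75 for RPL13A. The largest anaerobic values were -0.96 ± 0.74 for RPL22B, -0.72 ± 0.38 for RPL4B, -0.65 ± 0.42 for RPL9A, -0.64 ± 0.53 for RPS9A and -0.52 ± 0.65 for RPL27B. On the positive side stood 0.13 ± 0.23 for RPS27A in the aerobic series and 0.01 ± 0.28 for RPS31 in the anaerobic one, and without the 3 arrays these were -0.07 ± 0.09 and -0.05 ± 0.06.

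Most ribosomal protein transcripts, without the 3 arrays, were lower late than early in both series. In the aerobic series 0 rose and 100 fell, against 33.1% and 21.4% of all tested genes, and in the anaerobic series 0 rose and 91 fell, against 20.9% and 19.7%. The falls were small, with medians of -0.35 and -0.30 over all 122 genes, while the medians over all tested genes were 0.12 and 0.05. With the 0 h arrays left out, all late arrays lay below all early ones for 116 genes in the aerobic series and 114 in the anaerobic series, against 33.4% and 27.3% of tested genes. With them in, this held for 13 and 7 genes, against 17.6% and 14.9%. The calls thus depended on the arrays used, and each 0 h array lay below the next array of its series for 121 and 122 members.

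Of these genes, 81 fell in both series, 81.0% of the aerobic and 89.0% of the anaerobic set. The matching shares over all tested genes are not given here, so this overlap is not read as particular to the members. The difference between the changes of the series was called for 0 genes by limma with all arrays, against 0.844% higher and 0.978% lower of tested genes, and for 0 without the 3 arrays, against 3.78% and 5.99%. At an unadjusted p under 0.05 it was called for 0 genes with all arrays, against 4.3% and 10.2%. Without the 3 arrays 3 genes were higher and 0 lower by that p, against 11.1% and 17.9%. Among the 60S genes 58 fell in the aerobic and 54 in the anaerobic series, of 70, and among the 40S genes 42 and 37 of 52. These fits share 1 estimate of the spread per gene between the series. Fitted alone, without its 0 h array and the aerobic 9.6 h array, the aerobic series had 110 falls and the anaerobic series 16. The shares of all tested genes in the fits of each series alone are not given here.

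RPL9A, whose product lies at the base of the stalk, had early levels of 14.11, 14.76 and 14.94 and late levels of 13.42, 13.65 and 13.72 in the aerobic series. In the anaerobic series its early levels were 13.59, 14.88 and 14.66 and its late levels 14.37, 13.36 and 13.44. Without the 0 h arrays the late levels lay below the early ones in both series, and the gene fell by 1.25 ± 0.25 (adjusted p of 0.00215) and by 1.05 ± 0.25 (0.0102) without the 3 arrays. RPL22B, whose aerobic levels are given above, was at 14.05 and 13.47 in the anaerobic samples of 4.35 and 10.38 h and at 13.01, 12.28 and 12.88 in the late ones. It fell by 0.96 ± 0.21 in the aerobic and by 1.04 ± 0.21 in the anaerobic series (adjusted p of 0.00341 and 0.0059). RPL13A fell by 0.91 ± 0.16 and 0.80 ± 0.16, and RPL4B, from a protein that lines the exit tunnel, fell by 0.77 ± 0.20 and 0.88 ± 0.20. RPL41A (shared) fell by 1.61 ± 0.42 in the aerobic series, while its anaerobic value of -0.34 ± 0.42 was not called.

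Genes with values near 0 were RPL10, at -0.01 ± 0.04 and -0.06 ± 0.04, RPL40A, at -0.05 ± 0.05 and -0.09 ± 0.05, and RPL30, at -0.06 ± 0.05 and -0.10 ± 0.05. In all, 12 genes were called in neither series: RPL10, RPL15B, RPL1B, RPL30, RPL40A, RPL43A, RPS12, RPS14A, RPS22B, RPS23A, RPS30A and RPS4B. Among those read from a shared set are RPL1B, RPS23A and RPS30A.

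**Figure D3:**
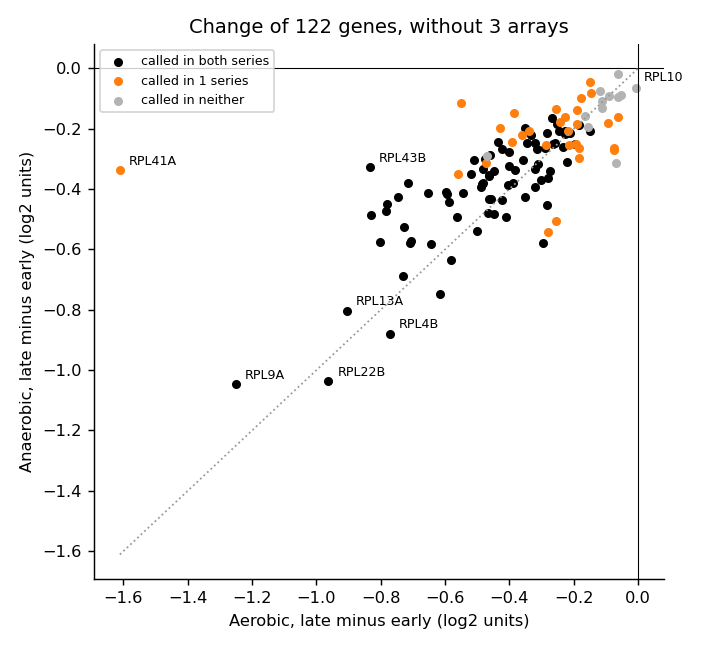
Late minus early change (log2 units) of 122 ribosomal protein genes in the aerobic (horizontal) and anaerobic (vertical) series without the 3 arrays, by the number of series in which the gene was called; the dotted line marks equal changes. All points lie below 0 on both axes, with medians of -0.35 and -0.30.

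On the deposited scale, ribosomal protein transcripts lay at similar or slightly higher levels in the anaerobic series, while most tested genes lay lower. Averaged over the 3 phases, the difference (anaerobic minus aerobic) had a median of 0.53 over the members and of -0.51 over all tested genes. Relative to all tested genes, the members' median was thus higher by 1.04, and by 0.67 without the 3 arrays. By limma 40 members were higher and 1 was lower, against 8.0% and 62.3% of tested genes. Without the 3 arrays 73 were higher and 6 lower, against 10.7% and 68.5%, and the members' median was 0.16 in place of 0.53. For 0 members did all 8 anaerobic arrays lie above the 7 aerobic arrays without 9.6 h, against 1.57% of tested genes. No source used here says whether the series were normalized together, and their array medians differ, so the level of this difference depends on the scale. On the deposited scale 417 of all tested genes were higher and 3246 lower, after centring each array on its median 1553 and 1215, and after a second quantile normalization 1235 and 1304. For the members these scalings gave 118 higher and 1 lower, and 35 and 1.

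The largest called differences with all arrays were 1.17 ± 0.34 for RPL6B (adjusted p of 0.00889), 1.11 ± 0.34 for RPS0B (0.0124), 1.08 ± 0.40 for RPL34A, 0.98 ± 0.38 for RPL12A and 0.93 ± 0.29 for RPL41A (shared). RPL6B, a 60S protein gene, had aerobic levels of 14.22, 14.93, 14.93, 10.74, 13.73, 14.04, 14.19 and 14.31 and anaerobic levels of 14.30, 15.20, 15.12, 15.02, 14.97, 14.95, 14.58 and 14.68. The anaerobic levels were mostly above the aerobic ones but the series overlapped. Without the 3 arrays the difference was 0.68 ± 0.07 for RPL6B, 0.59 ± 0.07 for RPS0B, whose product is needed to mature the 40S subunit, 0.46 ± 0.08 for RPL34A, 0.42 ± 0.09 for RPL12A and 0.90 ± 0.27 for RPL41A.

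RPL15B went the other way and separated the series completely. Its aerobic levels were 12.35, 11.94, 11.74, 12.41, 12.07, 11.74, 11.77 and 11.80 and its anaerobic levels 11.22, 11.40, 11.28, 10.96, 11.10, 10.80, 10.86 and 11.42. It was lower in the anaerobic series by -0.89 ± 0.12 (adjusted p of 2.7e-05), and by -0.76 ± 0.11 without the 3 arrays. With centring on array medians the difference was -0.31 and with a second quantile normalization -0.33. It was the only member with all anaerobic below all aerobic arrays, against 20.8% of tested genes. Without the 3 arrays RPS22B (-0.61 ± 0.13), RPS9A (-0.30 ± 0.11), RPS16A (shared, -0.27 ± 0.06), RPL9B (-0.23 ± 0.07) and RPS30A (shared, -0.19 ± 0.05) were lower as well. With all arrays none of these 5 was called, and the values of RPS9A, RPS16A and RPL9B were above 0, at 0.25, 0.11 and 0.04. The median over all tested genes was -0.52 in this fit, and RPL15B and RPS22B lay below it and the other 4 above it.

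The A and B copies of a protein were compared through the difference of their log2 levels, A minus B. Only its change between samples is read, which scaling an array by a constant leaves as it is, and which still depends on how each probe set responds. Of the 48 pairs, 14 include a shared probe set, on which the copies may partly be read together. P-values were adjusted over 52 pairs with a common name stem and all tested genes together. Of these 52 pairs 48 are the ribosomal ones, so a share of the 52 is largely their own share. For each pair below, a positive change means that A was higher relative to B.

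A minus B differed between the series for 19 of 48 pairs by limma, a share close to the 44.2% of all 52 pairs tested, most of which are these pairs, with A relatively higher without oxygen in 9 and lower in 10. All 19 were called in the same direction without the 3 arrays, and 15 with adjustment over the 52 pairs alone. The ranges of the series did not overlap for 2 pairs, RPS0 and RPL19, against 5.77% of the pairs tested.

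For RPL15, a protein deep in the 60S subunit, A minus B was 2.74, 3.60, 3.77, 1.20, 2.81, 3.31, 3.34 and 3.31 on the aerobic arrays and 3.81, 4.02, 3.97, 4.27, 4.26, 4.42, 4.07 and 3.71 on the anaerobic ones. The anaerobic values were higher except that the lowest of them, 3.71, was under the aerobic 3.77. The change was 1.19 ± 0.21 (adjusted p of 0.000248), and 0.84 ± 0.10 without the 3 arrays. With a second quantile normalization it was 0.67.

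For RPS22, a 40S protein, A minus B was 0.19, 0.26, 0.37, -1.65, -0.44, -0.12, 0.11 and 0.24 on the aerobic and -0.02, 0.71, 1.27, 1.30, 0.91, 1.23, 0.63 and 0.26 on the anaerobic arrays. It was lowest at the ends of the anaerobic series, where it reached the aerobic range. The change was 1.06 ± 0.22 (adjusted p of 0.00066), and 0.95 ± 0.17 without the 3 arrays. For RPL9 the change was 0.76 ± 0.18 (0.00225), with a drop of A minus B from 0.17 at 6.85 h to -1.77 and -1.62 at 9.6 and 14.5 h in the aerobic series and from 0.19 at 35.67 h to -0.65 and -0.83 in the last anaerobic samples. In both series RPL9 moved at the samples in which DAL80 jumped, but it moved elsewhere too. A minus B of RPL9 rose from -0.78 at 0 h to 0.42 at 4.35 h in the anaerobic series. Across that step DAL80 went from 8.54 to 5.78.

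For RPS0, A minus B was 0.13, -0.03, -0.13, 0.29, 0.58, 0.17, 0.08 and -0.06 on the aerobic arrays and lay between -0.40 and -0.17 on the anaerobic ones. The series did not overlap, and the change was -0.46 ± 0.07 (adjusted p of 0.000101). RPL19, a 60S protein that forms a bridge to the small subunit, had A minus B between -0.46 and -0.10 on the aerobic and between 0.01 and 0.12 on the anaerobic arrays, a change of 0.32 ± 0.07 (0.000855). For RPS27, A minus B changed by -0.68 ± 0.23, and by -0.35 ± 0.07 without the 3 arrays. The other large called changes were -0.72 ± 0.20 for RPS16 (shared), 0.50 ± 0.13 for RPL34, 0.47 ± 0.16 for RPS29 (shared), -0.42 ± 0.07 for RPL6 and -0.36 ± 0.14 for RPS9. In the fit without the 3 arrays they were -0.41 ± 0.04 for RPS16, 0.30 ± 0.05 for RPL34 and 0.24 ± 0.05 for RPS29, and the call of RPS9 was lost with adjustment over the 52 pairs alone (adjusted p of 0.0503 by limma). For RPS9, whose product bears on the accuracy of translation, A minus B went down along the anaerobic series from -0.80 at 0 h to -2.06 at 35.67 h and came back to -1.23 at 50.85 h, while it stayed between -1.38 and -1.13 in the aerobic series.

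**Figure D4:**
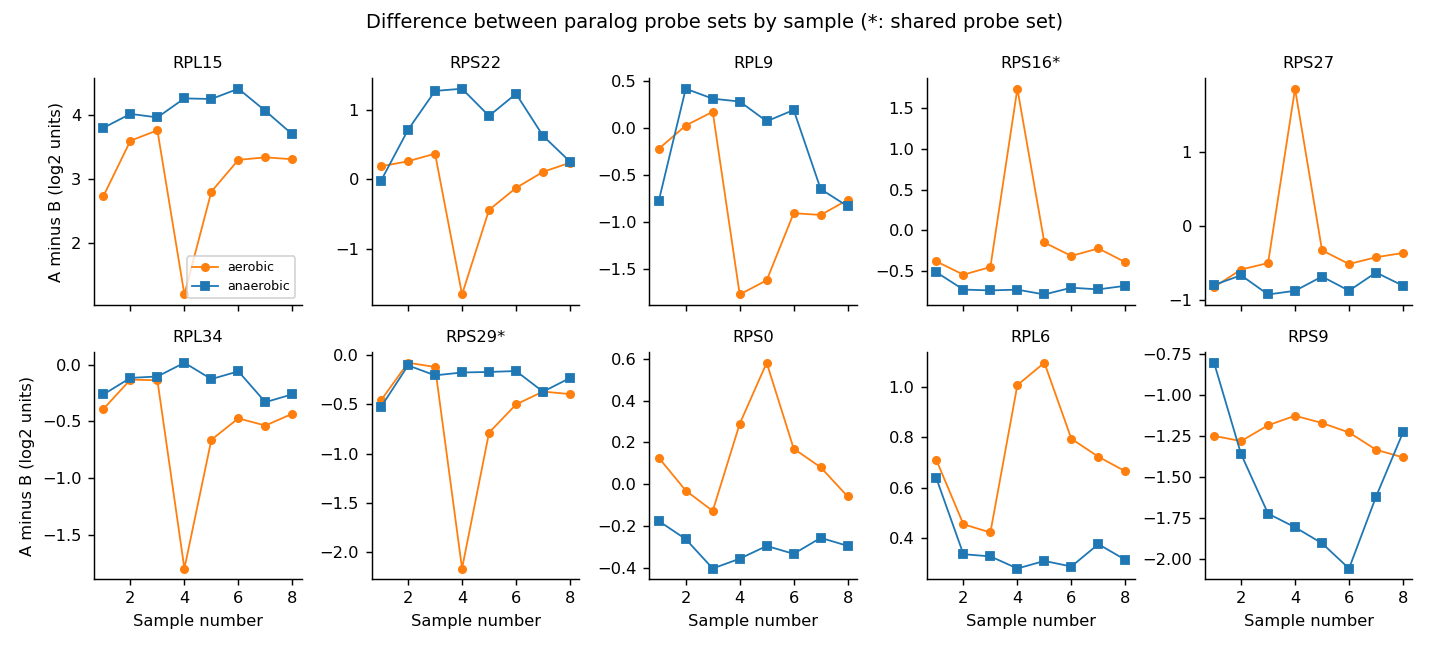
A minus B (log2 units, vertical axes, each panel on its own scale) by sample number, 1 to 8 in time, for the 10 called pairs of largest anaerobic minus aerobic change; circles are aerobic and squares anaerobic arrays, and a star marks a shared probe set. The aerobic sample of 9.6 h, number 4, is the lowest or highest of its series in every panel but those of RPS0 and RPL6.

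Between late and early samples, with all arrays, A minus B was called for 1 pair in the aerobic series, against 5.77% of the 52 pairs, for 0 in the anaerobic series, against 1.92%, and for 0 in the difference between the series, against 0.0%. The pair was RPL43, with A minus B of 0.56, 0.23 and 0.31 early and 1.12, 0.95 and 0.90 late, groups that did not overlap. Its change was 0.62 ± 0.18 (adjusted p of 0.0369), and the call was lost with adjustment over the 52 pairs alone (adjusted p of 0.112).

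In the fit without the 3 arrays 28 pairs were called in the aerobic and 20 in the anaerobic series, against 57.7% and 42.3% of the 52 pairs. Of these, 13 were called in both and all 13 in the same direction, 46.4% of the aerobic and 65.0% of the anaerobic set. The matching shares over the 52 pairs are not given here. For RPL9, A relative to B fell by 0.96 ± 0.24 in the aerobic and 0.79 ± 0.24 in the anaerobic series. For RPL13 it fell by 0.72 ± 0.11 and 0.54 ± 0.11. For RPL22 it rose by 0.54 ± 0.17 and 0.60 ± 0.17, for RPL4 (shared) by 0.71 ± 0.17 and 0.72 ± 0.17, and for RPS26 by 0.45 ± 0.11 and 0.47 ± 0.11. The difference between the series was called for 3 pairs, RPS28 (-0.52 ± 0.11, adjusted p of 0.021), RPL16 (-0.38 ± 0.10, 0.0456) and RPL6 (-0.29 ± 0.07, 0.0394), against 5.77% of the pairs. With adjustment over the 52 pairs alone RPS28 was called (adjusted p of 0.0493 by limma) and RPL16 and RPL6 were not (0.0677 each). RPS28, a 40S protein, had A minus B of 0.41 and 0.29 in the early anaerobic samples of 4.35 and 10.38 h and of 0.07, -0.08 and -0.08 in the late ones. In the aerobic series its values of 4.1 and 6.85 h were 0.17 and 0.12 and the late ones 0.34, 0.36 and 0.16.

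The low at 9.6 h was unequal within many pairs on this single array, which has no replicate and was set apart because its values stood out. Most of the 52 pairs are these 48 pairs, so shares of the 52 are no separate background. With that array as its own group, on the same assumption as above, A minus B was called against early and late for 38 of 48 pairs, against 76.9% of the 52 pairs, and it was outside the range of all other aerobic arrays for 40, against 80.8%. Of the 38, A was the relatively lower copy in 16 and B in 22. In 26 pairs the change was at least 1 log2 unit and in 6 at least 2.

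For RPS26, A minus B was 0.42 at 6.85 h, 3.86 at 9.6 h and 1.18 at 14.5 h, as RPS26A was at 15.55, 13.66 and 15.12 and RPS26B at 15.13, 9.80 and 13.94. This was the largest change, 3.19 ± 0.25, with B as the lower copy. RPS27 changed by 2.38 ± 0.14, RPS24 by 1.75 ± 0.13 and RPS14 by 1.64 ± 0.13, all with B relatively lower. For RPL13, A minus B was -0.63, -3.61 and -1.50 on the same 3 arrays, a change of -2.60 ± 0.27 with A lower. RPL15 changed by -2.15 ± 0.30, RPS22 by -1.83 ± 0.39 and RPL12, another protein of the stalk base, by -1.70 ± 0.16. Among shared pairs RPS16 changed by 2.13 ± 0.10. No change was called for RPL11, RPL19, RPL21, RPL23, RPL36, RPS0, RPS1, RPS7, RPS9 and RPS18, of which RPL11, RPL21 and RPS18 include shared sets. Sets of a single gene differed by up to 2.09 log2 units at this array (RPS17B). In pairs named above, the sets of RPS24A differed by 0.93, those of RPS26A by 0.02 and those of RPS16A by 0.04. The part of the probe set in these pair values was not tested.

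**Figure D5:**
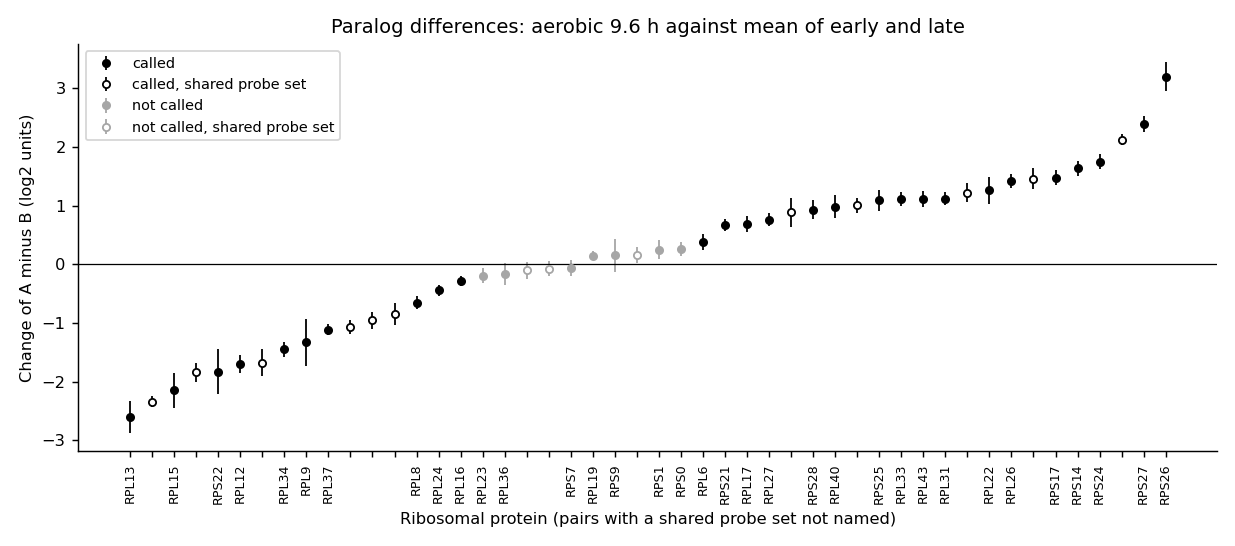
Change of A minus B on the aerobic 9.6 h array against the mean of the early and late groups (log2 units, vertical axis; points with standard error from limma) for 48 ribosomal protein pairs, in order of the change; black points were called, grey points not, and open points, which carry no name, rest on a shared probe set. The values run from -2.60 for RPL13 to 3.19 for RPS26, and 38 of 48 pairs were called.

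Several members are known for how their own synthesis is controlled or for a fused product. RPL30, whose protein represses splicing of its own transcript, was at 15.77, 13.93 and 15.61 at 6.85, 9.6 and 14.5 h. RPS14B, which is repressed by the Rps14 protein, was at 14.04, 10.19 and 13.54 and its copy RPS14A at 15.42, 13.26 and 14.92. Both were low at 9.6 h, RPS14B by 12.2-fold and RPS14A by 3.75-fold against their neighbours. RPS31 and RPL40A, which encode ubiquitin joined to a ribosomal protein, were 3.34-fold and 2.89-fold below their neighbours there, and RPL40B 5.97-fold. RPL3, of the peptidyl transferase centre, was 3.31-fold below. In the anaerobic minus aerobic comparison RPS14A was called (0.45 ± 0.19, adjusted p of 0.046), while RPL3 (0.40 ± 0.17), RPL28 (0.26 ± 0.12), RPL30 (0.36 ± 0.18), RPS31 (0.38 ± 0.18), RPL40A (0.27 ± 0.15) and RPL40B (0.33 ± 0.27) were not. The other probe sets of low mean signal were RPS10B (shared), between 10.85 and 13.81, and RPS9A, between 10.06 and 13.99, and both had their lowest value at 9.6 h.

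The acidic stalk proteins, encoded by RPP0, RPP1A, RPP1B, RPP2A and RPP2B outside the name rule, were low at 9.6 h too. Their difference had a median of -2.07 and ran from -2.81 for RPP1B to -1.70 for RPP2B. In the anaerobic minus aerobic comparison 4 of 5 were higher, against 8.0% of all tested genes. Values were 0.86 ± 0.27 for RPP1B and 0.74 ± 0.26 for RPP2A. Without the 3 arrays 4 of 5 were higher too, against 10.7%, and these values were 0.45 ± 0.06 and 0.36 ± 0.05. Between late and early 0 of 5 were called with all arrays in either series. Without the 3 arrays 2 fell in the aerobic and 3 in the anaerobic series, against 21.4% and 19.7% of all tested genes.

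A list of ribosomal protein chaperones and escorts had a median 9.6 h difference of -3.44 over 14 genes. Not all of the listed genes are dedicated to a single ribosomal protein. SYO1, the escort of Rpl5 and Rpl11, was at 11.14, 2.38 and 9.97 at 6.85, 9.6 and 14.5 h, and RRB1, the chaperone of Rpl3, at 13.43, 5.74 and 12.71. RPL5 itself was at 15.69, 13.02 and 15.31. SQT1, the chaperone of Rpl10, was at 13.06, 10.87 and 12.49 and TSR2, that of Rps26, at 12.68, 7.36 and 11.52. All 4 were lowest at 9.6 h. The depths of the listed genes and of the members were not compared by a test. Between late and early 0 of 14 fell in the aerobic and 1 in the anaerobic series with all arrays, LOC1 by 0.96 ± 0.23 (adjusted p of 0.032). Over all tested genes 4.28% and 2.34% fell in that fit. Without the 3 arrays 13 and 12 fell and 0 rose, against 21.4% and 19.7% of all tested genes lower. The falls were led by ARX1, TSR2 and LTV1 in the aerobic and ARX1, LTV1 and LOC1 in the anaerobic series.

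Regulators of the ribosomal protein genes went both ways, with a median 9.6 h difference of 0.13. With all arrays 4 of 19 rose between early and late in the aerobic series, against 11.2% of all tested genes. Among them were the kinase gene SCH9 by 1.20 ± 0.14, TOR1 by 0.67 ± 0.18 and FHL1 by 0.54 ± 0.13. In the anaerobic series 0 of 19 were called. When the 3 arrays were left out, the aerobic series had 12 of 19 rising and 4 falling, against 33.1% and 21.4% of all tested genes. The anaerobic series then had 4 and 7, against 20.9% and 19.7%. Anaerobic levels were lower for 12 of 19 on the deposited scale, a share close to the 62.3% of all tested genes. The largest called values were -1.05 ± 0.24 for YAK1, -0.95 ± 0.26 for TPK2 and -0.87 ± 0.11 for TOR1. CRF1, a corepressor at these genes, was at 9.84, 2.07, 2.06, 7.67, 4.59, 5.36, 4.51 and 4.47 on the aerobic arrays, with its highest values at 0 and 9.6 h. On the anaerobic arrays it was at 5.89, 2.91, 2.51, 3.44, 3.93, 4.11, 5.47 and 5.45. IFH1, the coactivator, was at 8.53 at 9.6 h and between 10.10 and 10.63 on the other aerobic arrays. TOD6, a repressor of ribosome biogenesis genes, was at 10.47, 3.36 and 9.87 at 6.85, 9.6 and 14.5 h. RAP1, at 11.64 to 11.91 over the aerobic series, and FHL1, at 9.89 to 10.70, had no low there.

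Translation factors were mixed, with a median 9.6 h difference of -0.51 over 11 genes, with -2.17 for YEF3, elongation factor 3, as the lowest. Its paralog HEF3 had the highest value and was at 13.62 at 0 h, 7.27 and 6.99 at 4.1 and 6.85 h and 10.63 at 9.6 h in the aerobic series. Between late and early with all arrays 1 of 11 fell in the aerobic series (SUP35 by 0.47 ± 0.12), against 4.28% of tested genes. In the anaerobic series HYP2 fell by 0.48 ± 0.11 while its hypoxic paralog ANB1 rose by 4.23 ± 0.99. Ribosome-associated chaperones and dormancy factors had a median 9.6 h difference of -0.89 over 11 genes, with -2.95 for SSB2 and -2.54 for SSB1, chaperones of nascent chains. In that list 0 of 11 were called between late and early with all arrays in either series. Without the 3 arrays 8 and 6 fell and 0 rose, against 21.4% and 19.7% of all tested genes lower.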

How the data were processed

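Per the labels' protocols, total RNA was cleared of DNA and turned into biotinylated cRNA for Affymetrix arrays. The deposited values are log2 intensities for 5716 probe sets, made by the authors with GCRMA, per the submitters' processing notes. The values' range gave the log base. No source used here gives the version or options of GCRMA, or says whether the series were normalized jointly. Of the probe sets, 5498 had 1 symbol, 0 several and 218 none, and a gene with several sets was read from its set of highest mean. The test covered the 5213 genes that reached 4 log2 units on 3 or more arrays and left out 236. No arrays were dropped or imputed unless stated.

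Members, gene lists and tests were chosen with earlier results of these data known. In R 4.3.3, limma 3.58.1 fitted a mean for each of 6 groups (2 oxygen conditions, 3 phases) over 16 arrays (lmFit, eBayes with an intensity trend for genes and without it for pairs), and ± is its standard error. P-values were Benjamini-Hochberg adjusted over all tested genes, and calls had an adjusted p under 0.05. The number of arrays limits the precision. Pairs of the A and B copies were set by symbol stem, because no protein table was used here. Of the 52 pairs 48 are ribosomal, so p-values of pairs were adjusted over pairs and all tested genes together, a departure from the planned adjustment over pairs, which is given as an alternative chosen after seeing the data.

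Named members were the 5 largest called changes each way in a comparison (5 largest values where fewer were called), called members against the majority, those of lowest mean, a fixed set of 13 genes and the 10 largest called pairs. Examples from the 9.6 h array and from fits without the 3 arrays were chosen after their values were seen. Alternatives were the filter, scaling, probe set summary, variance model, phase limits, slopes, arrays used and leaving out each array. The fit was tested on simulated data. No sequences were used.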

Additional observations from a re-analysis of the deposited data

Results flagged for a closer look

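The median level of the 122 ribosomal protein genes on the aerobic 9.6 h array lay far from the other aerobic arrays: its gap to the nearest of them was 0.784 of the whole range of the 8 arrays, past Dixon's 95% critical value. For single genes the 9.6 h or another aerobic array passed the same limit in 118 of 122 members, against 19.1% of all tested genes. In the anaerobic series the ratio for the median was 0.155, and 0 members and 12.6% of tested genes passed. Chance passes this limit in about 1 in 20 groups of independent samples, and these are serial samples.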

How the results depend on the processing

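With all arrays no ribosomal protein gene was called between late and early in either series, and this count depended on the arrays used. For settings not described above, the shares of all tested genes are not given. With early and late arrays only there were 3 calls in the aerobic and 2 in the anaerobic series, without the 3 arrays 100 and 91, without the aerobic 0 and 9.6 h arrays 65 and 6, and with each series alone without its 0 h array and the aerobic 9.6 h array 110 and 16. For anaerobic minus aerobic the count of 41 became 119 with centring on array medians, 14 with early and late arrays only, 79 without the 3 arrays, 1 with 2 early samples, 2 with 2 late samples, and 1 with a slope on feed glucose or on sample order. For pairs the aerobic late minus early count of 1 became 2 with quantile normalization, 5 with early and late arrays only, 28 without the 3 arrays, 18 without the aerobic 0 and 9.6 h arrays, 29 with each series alone without those arrays, and 0 with other phase limits, with both slopes and with adjustment over the 52 pairs alone. The anaerobic count of 0 became 1 with quantile normalization, with each series alone or with early and late arrays only, and 20, 6 and 5 in the same 3 fits without arrays. For the difference between the series there were 0 pairs, and 3 without the 3 arrays and 2 without the aerobic 0 and 9.6 h arrays. For anaerobic minus aerobic the 19 pairs became 31 with quantile normalization, 10 with early and late arrays only, 7 with 2 early samples, 11 with 2 late samples and 7 with either slope. The median level of the members, aerobic 9.6 h minus the mean of 6.85 h and 14.5 h, was -2.57, and -2.86 with quantile normalization and -2.81 over genes without a shared set. Leaving out each array in turn gave member counts of 0 to 2 in both series, 0 to 0 for their difference and 14 to 119 for anaerobic minus aerobic, and pair counts of 0 to 6, 0 to 2, 0 to 0 and 14 to 37. The 119 and 37 come without the aerobic 14.5 h array, which leaves 9.6 h alone in its phase, while leaving out the anaerobic 16.88 or 26.52 h array gave 14 or 15 members. Without the aerobic 0 or 27.25 h array or the anaerobic 4.35, 10.38 or 35.67 h array there were 20 to 22 members. The pair calls of the aerobic series reached 6 without the 9.6 or 14.5 h array and 4 without 0 h. Where no value above shows the cause of such a change, the cause was not tested. Of the 18 named and called results 0 changed sign in any setting, while values that were not called did, such as RPS27A between late and early. Of these 18, 5 lost their call without at least 1 array. No paired analysis was possible because the labels give the samples no shared replicate numbers. Pairs at a stricter protein identity were not run, and centring cannot change A minus B. Whether members near the array maximum are limited by signal was not tested.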
